A study of Mus musculus with 84 samples.

Results

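The libraries described here came from pre-granulocyte-monocyte progenitors (pGM) of 10 week old mice: 3 libraries labelled MLL-ENL (x2), numbered 5293, 5897 and 5900, and 4 control libraries of the same set, numbered 4892, 4894, 5898 and 5899. They were chosen by their sample labels, with no use of measured values, and are 7 of the 84 libraries of the series. Every mouse gene was considered, and 14260 had enough counts to be tested. The series measured RNA of sorted progenitors to ask how the age at which MLL-ENL is switched on bears on leukemia. MLL-ENL joins human KMT2A to human MLLT1, and the mice carry it as a tetracycline-regulated transgene. All 7 libraries were made from bone marrow of mice that had received no doxycycline, with the note fetal induction. The genotype is given as MLL-ENL for the 3 (x2) libraries and wild type for the 4 controls, and the sources used here do not explain (x2), nor do they give the strain, the sex or the promoter that drives the transactivator. The library numbers recur in 2 other populations of the set, committed hematopoietic progenitor cells (HPC) and granulocyte-monocyte progenitors (GMP), and each number is read here as 1 animal. Also used are pGM of another set with its own controls, again without doxycycline: 4 MLL-ENL and 4 wild type libraries from bone marrow at 10 weeks, and 4 MLL-ENL and 3 wild type libraries from neonatal liver at P0, the day of birth.

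KMT2A (MLL) is a histone methyltransferase that keeps developmental genes such as the Hoxa cluster active. In the fusion its DNA-binding part is joined to ENL, a chromatin reader that recruits the transcription elongation machinery, and genes bound by the fusion stay transcribed in cells that would otherwise silence them. pGM cells stand between multipotent progenitors and GMP on the way to neutrophils and monocytes, and GMP are a cell type in which MLL fusions are known to start leukemia in mice.

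Library depth lay between 14636806 and 19064079 mouse counts in the (x2) group and between 16265264 and 18931739 in the controls. Control pGM fell between control HPC and control GMP for stem and multipotent markers (Ly6a, on average 27.5 CPM, the count scaled to library size, in pGM, 284 CPM in HPC and 2.98 CPM in GMP) and for granule genes (Elane 1840, 444 and 32299 CPM in the same order). The first principal component of the 1000 most variable genes took 44.2% of the variance and did not separate the groups: the (x2) libraries lay between 4.43 and 30.75, controls 4892 and 4894 at -40.53 and -39.59, and controls 5898 and 5899 at 10.20 and 4.87. Late neutrophil transcripts were high in controls 4892 and 4894: Ngp had 2.20 to 14.6 CPM in the (x2) libraries, 660 and 562 CPM in these 2 controls and 1.86 and 2.30 CPM in controls 5898 and 5899. Xist was high in (x2) 5900 and in controls 4894, 5898 and 5899, whereas Ddx3y was high in (x2) 5293 and 5897 and in control 4892, so the sexes were not balanced. The 4 libraries numbered 5897 to 5900, which leave out controls 4892 and 4894 and are not balanced by sex either, were also analysed alone.

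The transgene was read in every (x2) library. Human KMT2A and MLLT1 lines together held 91, 152 and 141 counts in libraries 5293, 5897 and 5900, which is 5.08, 7.97 and 9.63 CPM, against 1, 0, 1 and 2 counts in controls 4892, 4894, 5898 and 5899. The groups did not overlap: the mean was 7.56 ± 2.30 CPM in (x2) pGM (SD, n = 3) and 0.0585 ± 0.0504 CPM in controls (SD, n = 4), a ratio of 129, with a 2-sided exact permutation p of 0.057, the smallest that 3 against 4 libraries can give. Library 5293 had the lowest transgene level of the 3. In the 4 pGM libraries labelled MLL-ENL at the same age, from the other set, the level was 6.30, 1.58, 2.39 and 1.74 CPM, and the (x2) mean was 2.52 times theirs with overlapping libraries (exact permutation p = 0.11). The 4 P0 MLL-ENL libraries had 11.7, 8.75, 10.4 and 11.7 CPM. Mouse Kmt2a had 65.3 to 86.6 CPM in (x2) pGM and 47.7 to 85.8 CPM in controls, and mouse Mllt1 16.2 to 34.7 CPM against 13.3 to 21.9 CPM, and neither passed the test.

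**Figure D1:**
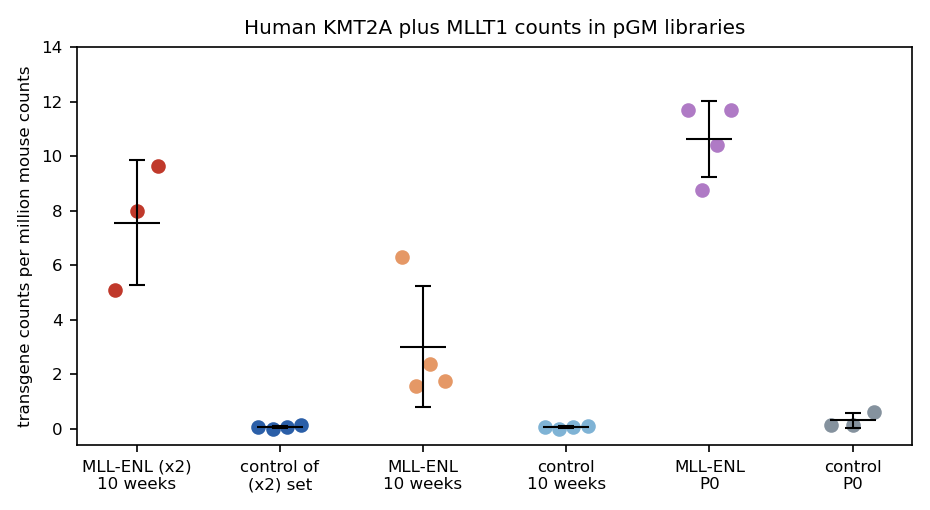
Human KMT2A plus MLLT1 level, as CPM of mouse counts, in each pGM library (points), with the mean and SD (bars), for 6 groups. The (x2) libraries lie at 5.08, 7.97 and 9.63 CPM, above 3 of the 4 MLL-ENL libraries of the same age, and the controls of the same set lie at or below 0.123 CPM.

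Between (x2) and control pGM, 57 genes were higher and 62 lower at a false discovery rate (FDR) of 0.05 by edgeR's quasi-likelihood test, together 0.835% of the genes tested (0.4% higher and 0.435% lower). The changes were large: 29 genes rose and 23 fell by 4-fold or more, and the median size was 1.79 on the log2 scale. In all 119 genes the libraries of the groups did not overlap, which was so for 9.47% of all genes tested. Library 5897 was the highest of the 3 (x2) libraries in 28 of the 57 genes that rose and the lowest in 29 of the 62 that fell. Without library 5897 the count was 75 (39 higher, 36 lower), and with the 2 (x2) and 2 control libraries numbered 5897 to 5900 alone it was 24 (11 higher, 13 lower), of which 20 were among the 119. All 119 kept their direction there, which the lack of overlap between the groups all but fixes in advance.

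**Figure D2:**
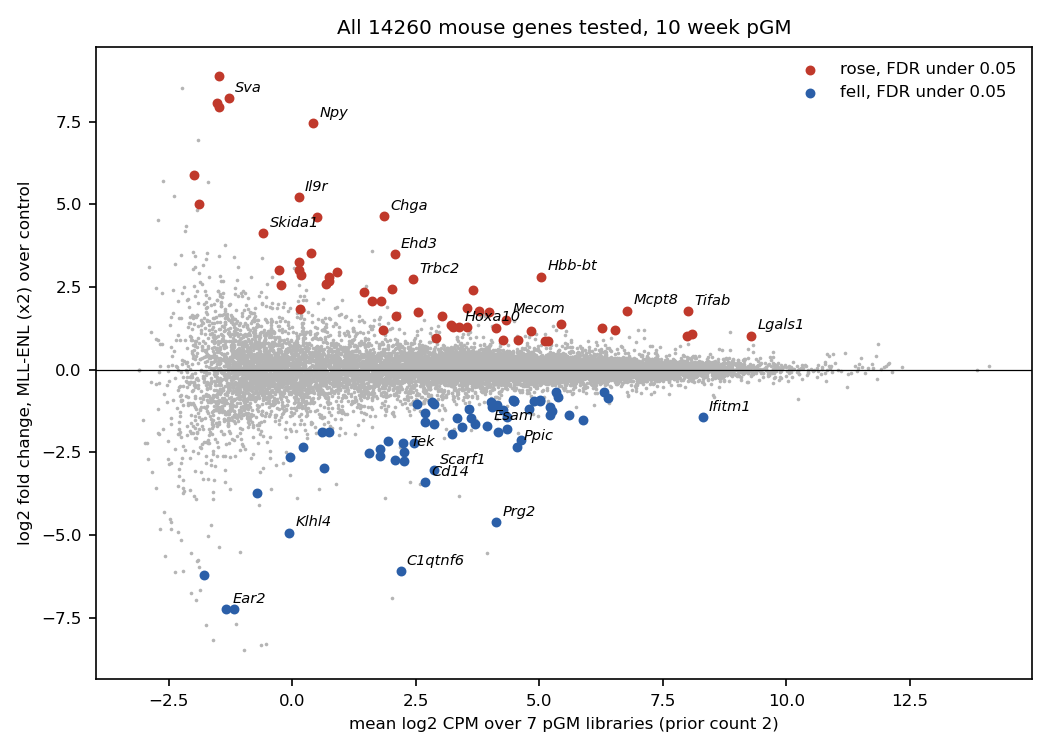
Log2 fold change of (x2) over control pGM (vertical axis) against the mean log2 CPM over the 7 libraries (horizontal axis) for all 14260 genes tested. Red points are the 57 genes that rose and blue points the 62 that fell at FDR under 0.05; C1qtnf6 and Prg2 stand apart below, and Il9r, Npy and Chga above.

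Of 22 tested genes known as targets of MLL fusions, 3 rose and none fell, with a median log2 fold change of 0.27 beside 0.01 over all genes. Mecom encodes EVI1, a zinc finger factor of hematopoietic stem cells that is linked to poor outcome in MLL-rearranged leukemia. It had 31.5, 53.8 and 26.9 CPM in (x2) libraries 5293, 5897 and 5900, against 11.9, 14.9, 10.3 and 15.4 CPM in controls 4892, 4894, 5898 and 5899. Every (x2) library exceeded every control, and the log2 fold change was 1.51 ± 0.23 (SE, FDR 0.001).

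Skida1, a gene of the SKI/DACH domain group, was close to silent in controls. It had 1.72, 2.87 and 2.83 CPM in (x2) pGM, against 0.0549, 0.151, 0.155 and 0.177 CPM in controls. The groups were far apart, with a log2 fold change of 4.13 ± 0.47 (FDR 9.3e-05). Hoxa10, a homeobox factor of myeloid progenitors, had 14.7, 21.3 and 15.4 CPM in (x2) pGM, against 7.63, 6.84, 6.09 and 7.48 CPM in controls, a log2 fold change of 1.29 ± 0.22 (FDR 0.0039).

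The other Hoxa genes did not pass the test. Hoxa9, the homeobox factor on which many MLL fusion leukemias depend, had 45.3, 55.5 and 32.6 CPM in (x2) pGM, against 27.8, 27.2, 27.6 and 24.2 CPM in controls (log2 fold change 0.74 ± 0.19, FDR 0.068). Its libraries did not overlap, nor did those of Hoxa5 (log2 fold change 1.30 ± 0.33, FDR 0.078) and Hoxa7 (0.41 ± 0.13, FDR 0.19). Hoxa2, Hoxa3 and Hoxa4 were each at or below 1.33 CPM in every library. Meis1, the cofactor that binds DNA with HOXA9, had 262, 352 and 190 CPM in (x2) pGM and 409, 296, 301 and 340 CPM in controls, so the groups overlapped and the log2 fold change was -0.33 ± 0.23 (FDR 0.82). Of 24 genes for MLL fusion partners and cofactors, none passed in either direction (median 0.09).

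**Figure D3:**
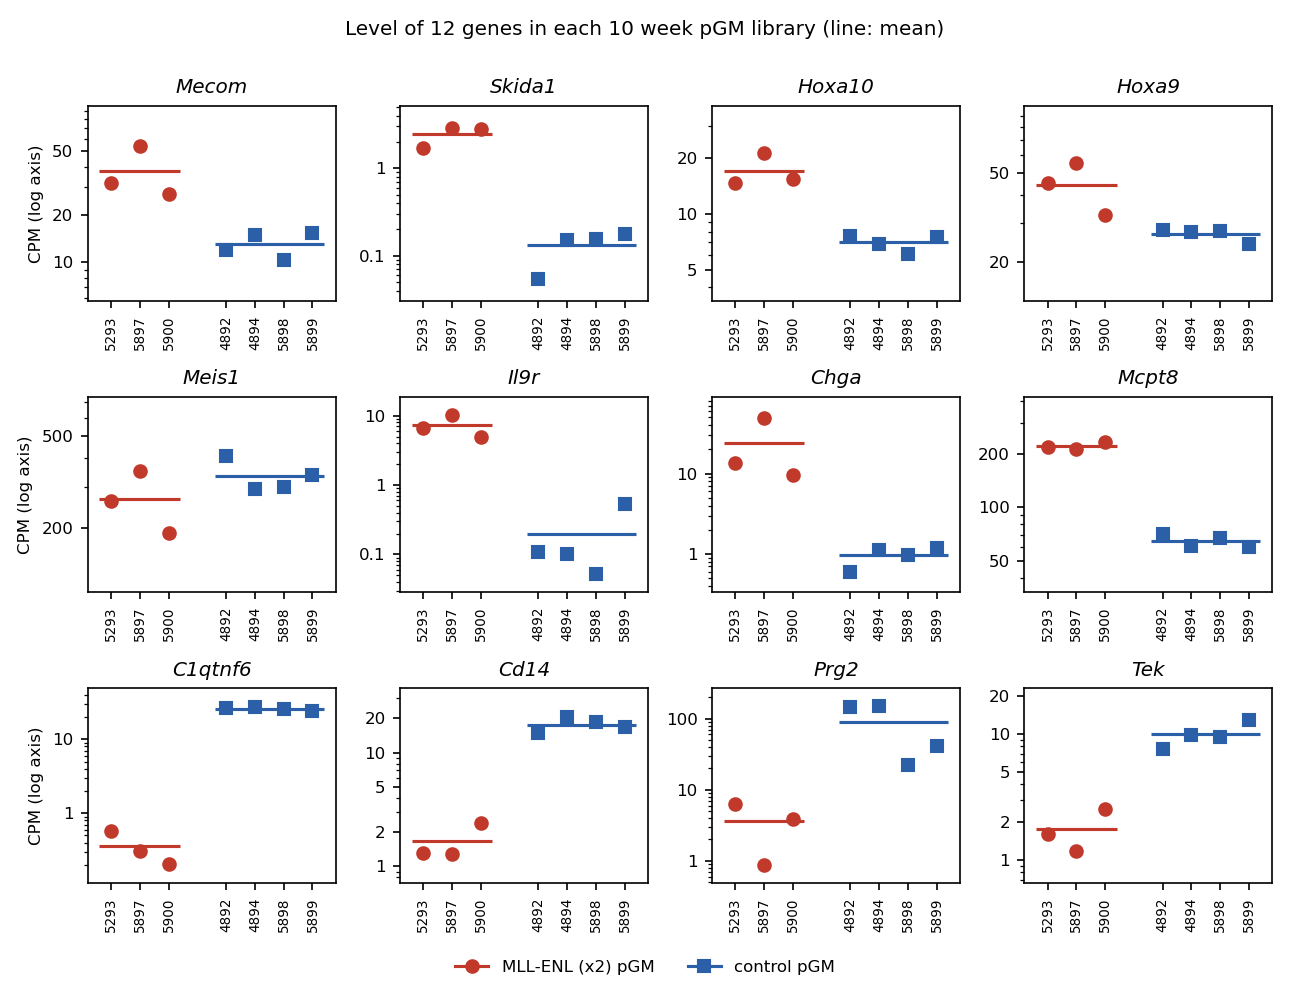
Level of 12 genes in each pGM library as CPM on log axes, with (x2) libraries as red circles on the left, controls as blue squares on the right and the group means as lines. The groups are apart for every gene but Meis1; Hoxa9 is apart without passing the test.

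Promoter windows of 4 of the changed genes are shown because the KMT2A part of the fusion binds DNA rich in unmethylated CpG through its CXXC domain, so the CpG content of a start site is a property that the sequence itself shows. Each window runs over 300 bases, 250 before and 50 after the start, 5′ to 3′, in GRCm38.p6 from RefSeq, with every CG in capitals. Where 2 RefSeq starts are listed, as for Mecom and Hoxa10, it is the one farther upstream. In GENCODE vM21 Mecom extends upstream to 30548008 and C1qtnf6 to 78531416, so both windows lie inside the annotated genes.
Mecom, chr3:30509710-30510009, minus strand: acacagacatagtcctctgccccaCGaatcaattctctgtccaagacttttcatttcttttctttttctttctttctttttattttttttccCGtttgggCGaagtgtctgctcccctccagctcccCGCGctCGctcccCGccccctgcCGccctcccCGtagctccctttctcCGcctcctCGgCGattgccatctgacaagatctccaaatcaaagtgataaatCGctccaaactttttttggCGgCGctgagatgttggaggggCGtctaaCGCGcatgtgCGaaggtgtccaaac
Hoxa10, chr6:52240805-52241104, minus strand: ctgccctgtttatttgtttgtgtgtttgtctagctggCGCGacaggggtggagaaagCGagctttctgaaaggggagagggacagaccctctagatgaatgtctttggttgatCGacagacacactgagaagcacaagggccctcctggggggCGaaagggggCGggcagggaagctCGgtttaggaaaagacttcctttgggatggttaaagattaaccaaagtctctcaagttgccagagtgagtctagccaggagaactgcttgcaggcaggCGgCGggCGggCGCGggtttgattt
C1qtnf6, chr15:78529602-78529901, minus strand: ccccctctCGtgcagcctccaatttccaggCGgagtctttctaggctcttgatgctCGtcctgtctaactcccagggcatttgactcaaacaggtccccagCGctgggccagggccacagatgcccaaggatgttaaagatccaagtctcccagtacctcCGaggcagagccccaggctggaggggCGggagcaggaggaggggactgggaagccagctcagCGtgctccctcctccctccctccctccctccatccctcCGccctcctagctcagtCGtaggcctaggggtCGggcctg
Mcpt8, chr14:56085148-56085447, minus strand: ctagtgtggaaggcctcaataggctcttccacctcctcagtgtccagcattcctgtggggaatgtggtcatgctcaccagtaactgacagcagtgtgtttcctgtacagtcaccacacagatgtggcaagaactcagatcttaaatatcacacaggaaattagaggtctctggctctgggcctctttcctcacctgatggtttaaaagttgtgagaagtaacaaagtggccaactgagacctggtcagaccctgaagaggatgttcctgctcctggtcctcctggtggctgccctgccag
The Mecom window held 19 CG, the Hoxa10 window 12, the C1qtnf6 window 10 and the Mcpt8 window 0; over the 32851 windows of the table the median was 7. Of all windows 28.1% held at least as many as that of Mecom, 39.6% as many as that of Hoxa10 and 43.5% as many as that of C1qtnf6, and 5.43% held none, as that of Mcpt8. Mecom and Hoxa10 rose while C1qtnf6, close to Hoxa10 in content, fell, and these are descriptions of 4 windows only. A window was listed for 87 of the 119 genes (73.1%), and the changed genes were not compared as a set.

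Among 22 receptors for cytokines and chemokines, Il9r and Ccr1 rose and none fell (median -0.04). Il9r encodes the receptor of interleukin 9, a growth factor of mast cells and T cells. It had 6.6, 10.3 and 4.99 CPM in (x2) pGM, against 0.110, 0.101, 0.0516 and 0.530 CPM in controls. Every (x2) library lay far above every control, control 5899 being the highest of the 4, and the log2 fold change was 5.21 ± 0.77 (FDR 0.0012). Ccr1, a chemokine receptor of myeloid cells, had 11.9, 17.3 and 17.5 CPM in (x2) pGM and 4.23 to 5.83 CPM in controls (log2 fold change 1.64 ± 0.30, FDR 0.0057). The receptors that govern granulocyte and monocyte growth did not pass: Csf1r had 57.7 to 110 CPM in (x2) pGM against 81.7 to 104 CPM in controls, and Csf3r 86.2 to 133 CPM against 142 to 199 CPM (FDR 0.44).

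Chga, the largest rise among the genes chosen by the rule on level, encodes chromogranin A, a protein of neuroendocrine secretory granules. It had 13.6, 49.7 and 9.58 CPM in (x2) pGM, against 0.604, 1.11, 0.981 and 1.18 CPM in controls, with library 5897 far above the other 2 and the groups apart (log2 fold change 4.64 ± 0.51, FDR 2.1e-05). Ehd3, a membrane-trafficking ATPase of recycling endosomes, had 23.7, 18.5 and 9.17 CPM in (x2) pGM and 0.723 to 2.14 CPM in controls (log2 fold change 3.49 ± 0.37, FDR 1.4e-05). The other members of the 12 largest rises among genes of at least 1 on the mean log2 CPM scale had log2 fold changes between 1.77 and 2.82: the beta-globin gene Hbb-bt, Trbc2, a constant segment of the T cell receptor beta locus, the protocadherin Pcdh7, the monocarboxylate transporter family member Slc16a11, Nsg2, a protein of neuronal vesicles, the receptor Mrgpra2b, the actin-binding protein Dbn1, the small GTPase Gem, Mcpt8 and the phosphodiesterase Pde3b. In each of the 12 the (x2) libraries lay above all controls, which the choice of genes required. With 1 library left out, Gem no longer passed without 5897, Dbn1 without 5293 or 5897, and Mrgpra2b without 5900.

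Npy, Sva, Sp9, Dmrtc2, Fam20a, Tifab, Clec12a, Tyrobp and Lgals1 were chosen after their values were seen. Npy, the peptide transmitter neuropeptide Y, had 4.26, 19 and 44.4 CPM in (x2) pGM and at most 0.258 CPM in controls (log2 fold change 7.46 ± 0.95, FDR 0.00012). Sva was read in all 3 (x2) libraries, at 1.66, 1.74 and 3.10 CPM, and in no control, at least 51.1-fold higher with a floor of 3 counts over the 4 controls. Sp9, Dmrtc2 and Fam20a were likewise at 0 in every control, and in each of them library 5897 was the highest: Sp9 had 0.728, 9.18 and 0.405 CPM in (x2) libraries 5293, 5897 and 5900 (FDR 0.036).

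Rises among abundant genes were smaller. Tifab, an inhibitor of TRAF6 signaling encoded on the segment that is deleted in human del(5q) disease, had 432, 575 and 561 CPM in (x2) pGM against 140, 150, 165 and 159 CPM in controls (log2 fold change 1.77 ± 0.21, FDR 8.4e-05). Each group was tight and they did not overlap. Clec12a, an inhibitory lectin of myeloid cells, had 355 to 547 CPM in (x2) pGM and 189 to 218 CPM in controls (FDR 0.0077). Tyrobp, the signaling adaptor DAP12, had 288 to 555 CPM and 184 to 199 CPM in the same groups (FDR 0.0094), and Lgals1, which encodes galectin-1, had 767 to 1284 CPM and 423 to 527 CPM (FDR 0.029). For these 3 genes library 5900 was the highest.

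C1qtnf6, on chromosome 15 at 78523346 to 78531416 (GRCm38), showed the largest fall among the genes chosen by rule. Its product is a secreted member of the C1q/TNF-related proteins. It had 0.572, 0.308 and 0.202 CPM in (x2) libraries 5293, 5897 and 5900, against 26.4, 27.3, 25.4 and 24.0 CPM in controls 4892, 4894, 5898 and 5899. The control libraries differed little, the (x2) libraries were near silence, and the log2 fold change was -6.10 ± 0.39 (FDR 5.5e-09), called in all 15 alternative analyses.

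Cd14, the coreceptor through which myeloid cells sense bacterial lipopolysaccharide, had 1.30, 1.28 and 2.43 CPM in (x2) pGM, against 14.7, 20.4, 18.5 and 16.6 CPM in controls (log2 fold change -3.41 ± 0.33, FDR 3.8e-06). Scarf1, a scavenger receptor, had 2.13, 2.51 and 1.75 CPM in (x2) pGM and 16.2 to 21.3 CPM in controls (-3.04 ± 0.27, FDR 1.2e-06). Ppic, the cyclophilin C gene, had 11, 7.07 and 9.98 CPM in (x2) pGM and 37.8 to 53.7 CPM in controls (-2.33 ± 0.18, FDR 1.1e-07). In all 3 the groups were far apart, a lack of overlap being required by the choice, and each control library was high. The calls also held with libraries 5897 to 5900 alone. The remaining members of the 12 largest falls were Prg2, Tmem215, the gelatinase Mmp2, Mmrn1, Tek, the guanine nucleotide exchange factor Arhgef28, the G protein subunit Gng11 and the glypican Gpc3, with log2 fold changes between -4.60 and -2.22. Tmem215, at 0.666 to 2.36 CPM in (x2) pGM and 6.89 to 17.4 CPM in controls, stopped passing in 8 of 15 alternatives.

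Genes of stem and multipotent cells moved in both directions. Of 20 tested, 1 rose (Mecom) and 3 fell (Tek, Esam and Procr), with a median log2 fold change of -0.42 and 15 of 20 below 0. Over all genes tested, to be set beside this and the later lists, 6944 of 14260 lay below 0 and 7313 above. Tek, the angiopoietin receptor TIE2, had 1.61, 1.18 and 2.56 CPM in (x2) pGM, against 7.63, 9.90, 9.50 and 12.9 CPM in controls (-2.49 ± 0.40, FDR 0.0014). Esam, an adhesion molecule of stem cells and endothelium, had 6.71, 5.23 and 12.0 CPM in (x2) pGM, against 29.1, 22.5, 22.7 and 30 CPM in controls (-1.71 ± 0.27, FDR 0.0014). Procr, the protein C receptor that marks long-term stem cells, had 6.08, 5.89 and 10.4 CPM in (x2) pGM and 15.6 to 19.5 CPM in controls (-1.20 ± 0.26, FDR 0.019). The groups did not overlap in these 3 genes, though Procr missed the threshold in 6 of 15 alternatives. The (x2) libraries reached 37.4 CPM of Mecom on average, close to the 40.2 CPM of control HPC, while Ly6a and Hlf had 17.9 and 75.4 CPM in (x2) pGM and 27.5 and 85.7 CPM in control pGM.

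Megakaryocyte genes lay mostly lower: none rose and 2 of 14 fell, with 12 of 14 below 0 and a median of -0.76. Mmrn1, which encodes the platelet and endothelial protein multimerin, had 0.520, 1.33 and 1.48 CPM in (x2) pGM and 2.82 to 8.78 CPM in controls (-2.53 ± 0.50, FDR 0.0092). Platelet genes such as Pf4 (2 to 4.52 CPM in (x2) pGM, 3.32 to 6.53 CPM in controls) and Itga2b (16.3 to 47.0 CPM against 49.7 to 79.8 CPM) did not pass. The summed level of the list was 439 to 624 CPM in (x2) pGM and 552 to 715 CPM in controls, and Gp6 was at 0 in all 7 libraries.

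Genes of mast cells, basophils and eosinophils were split, with 1 of 16 higher and 1 lower (median -0.59, 11 of 16 below 0). Mcpt8, a protease of basophils, had 220, 213 and 233 CPM in (x2) pGM, against 70.6, 60.4, 66.8 and 59.8 CPM in controls. Both groups were tight and far apart, with a log2 fold change of 1.79 ± 0.18 (FDR 5.6e-06), and it was called in all 15 alternatives. Other basophil and mast cell genes did not follow: Cpa3 had 306 to 400 CPM in (x2) pGM and 192 to 410 CPM in controls, Ms4a2 had 21.6 to 36.3 CPM and 42.6 to 57.5 CPM, and Prss34 had 0.135 to 1.49 CPM and 1 to 6.79 CPM. None of these passed.

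Prg2, the major basic protein of eosinophil granules, had 6.29, 0.871 and 3.84 CPM in (x2) pGM, against 144, 149, 22.6 and 41.2 CPM in controls. Controls 4892 and 4894 lay above the other 2, the same 2 that held late neutrophil transcripts, and the log2 fold change was -4.60 ± 0.73 (FDR 0.0014). With libraries 5897 to 5900 alone it was -3.80 (FDR 0.033). Epx, the eosinophil peroxidase gene, had 0.564 to 3.90 CPM in (x2) pGM and 5.47 to 36.6 CPM in controls, and Ear2, an eosinophil ribonuclease chosen after its values were seen, was at 0 in every (x2) library and at 0.258 to 1.96 CPM in controls, at least 20-fold lower with the 3-count floor. Epx did not pass (FDR 0.16). In bulk libraries fewer cells of a type and less RNA per cell cannot be told apart.

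Neutrophil granule genes gave no call in 20 tested. Early granule genes had similar levels in both groups, with Mpo at 17356 to 19224 CPM in (x2) pGM and 16492 to 17519 CPM in controls, and Elane at 1425 to 3660 CPM and 1100 to 2851 CPM. Late granule genes were high in 2 of the 4 controls: Ltf had 0.513 to 1.92 CPM in (x2) pGM, 304 and 232 CPM in controls 4892 and 4894 and 0.568 and 0.177 CPM in controls 5898 and 5899. The part of these 2 libraries in the other falls was not tested beyond the fit of libraries 5897 to 5900.

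Of 16 erythroid genes 1 rose, and 13 were below 0 with a median of -0.55. Hbb-bt had 52.8, 144 and 121 CPM in (x2) pGM, against 13, 22, 15.1 and 10.0 CPM in controls (2.82 ± 0.44, FDR 0.0013). Its near-identical neighbor Hbb-bs had 0.832, 0.974 and 1.15 CPM in (x2) pGM, against 17.5, 32.9, 1.96 and 5.71 CPM in controls (-3.88 ± 1.08, FDR 0.12), the opposite direction. Reads of these paralogs could be split by the counting, so the level of each is uncertain. Klf1, the erythroid master regulator, had 2.23 to 10.0 CPM in (x2) pGM and 1.5 to 7.24 CPM in controls, and neither passed of the alpha-globin genes, of which Hba-a1 had 0.312 to 0.944 CPM in (x2) pGM, against 8.56, 15.1, 0.774 and 2 CPM in controls (FDR 0.25). The list's summed level was 925 to 1419 CPM in (x2) pGM and 1612 to 2765 CPM in controls.

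All 9 tested genes of the fetal and neonatal list lay above 0 (median 0.69), and 2 of them passed. Igf2bp3, an RNA-binding protein of fetal progenitors, had 1.09, 4.10 and 5.06 CPM in (x2) pGM, against 0.494, 0.754, 0.310 and 0.295 CPM in controls, with the groups apart and library 5293 the lowest of the (x2) group (2.85 ± 0.49, FDR 0.0038). Lin28b, which holds fetal hematopoietic identity, had 0.156, 3.33 and 0.135 CPM in (x2) pGM and was at 0 in 3 of 4 controls and at 0.0516 CPM in control 5898. That call rested on library 5897: with it the FDR was 0.0098, and without it Lin28b no longer passed. Hmga2, a chromatin protein of fetal stem cells, had 34.6, 39.8 and 28.5 CPM in (x2) pGM and 19.3 to 23.2 CPM in controls without passing (0.67 ± 0.17, FDR 0.08). The other 9 genes of the list had too few counts to test, Igf2bp1 and Sox17 at 0 in all 7 libraries.

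No gene passed in either direction in the lists for myeloid transcription factors (20 genes, median 0.24), lymphoid priming (14, 0.22), B cells (8, 0.22), T and NK cells (11, 0.43), monocytes and dendritic cells (18, 0.32), MHC class II (10, 0.01), the type I interferon response (22, -0.32), mitosis (20, -0.10), DNA replication (22, -0.03), cytoplasmic ribosomal proteins (24, 0.06), ribosome biogenesis (20, -0.02), oxidative phosphorylation (22, 0.05), the p53 response (16, -0.01), immediate early genes (11, 0.36), inflammatory NF-kB genes (12, -0.09), hepatocytes (3, 0.74), stroma and endothelium (10, -0.48) or the sorting antigens (11, -0.28). Cell cycle genes had close levels, with Top2a at 478 to 760 CPM in (x2) pGM and 581 to 685 CPM in controls. Of the 22 interferon genes 20 lay below 0, beside 6944 of 14260 over all genes. The largest fall was that of Ifi44, at 6.07 to 8.99 CPM in (x2) pGM and 13 to 19 CPM in controls (-1.13 ± 0.32, FDR 0.12). Among monocyte genes Ly86 had 142, 146 and 360 CPM in (x2) pGM and 78.4 to 103 CPM in controls (1.21 ± 0.31, FDR 0.071). Irf8, the factor that directs progenitors to the monocyte and dendritic fates, had 136 to 371 CPM in (x2) pGM and 121 to 247 CPM in controls, and Myc 612 to 1100 CPM and 993 to 1068 CPM, with overlap in both. Of the sorting antigens Kit had 174 to 566 CPM in (x2) pGM and 356 to 718 CPM in controls, and Cd34 970 to 1307 CPM and 1181 to 1546 CPM.

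**Figure D4:**
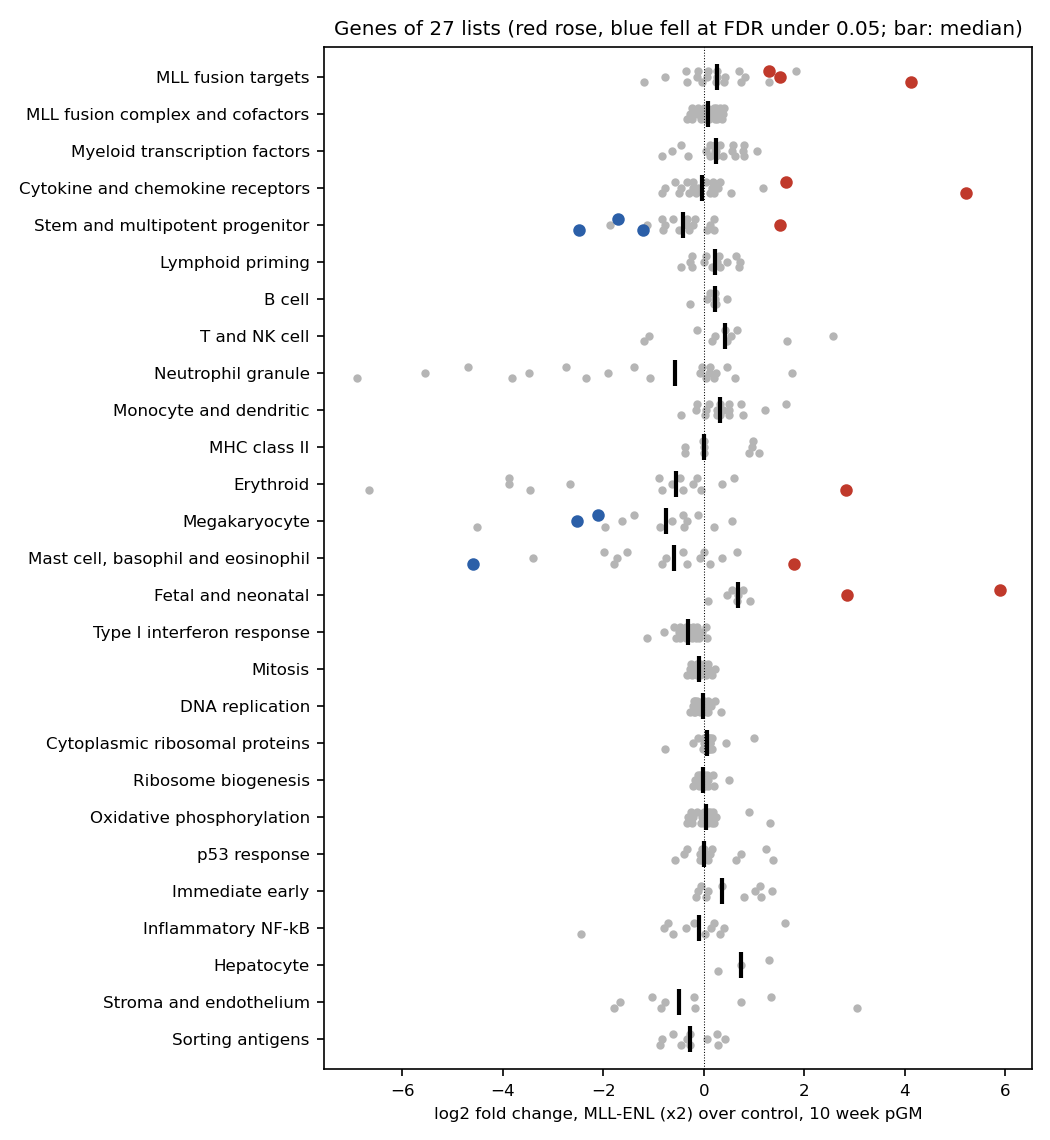
Log2 fold change of (x2) over control pGM for each tested gene of 27 lists (points), with the median of each list as a black bar; red points rose and blue points fell at FDR under 0.05. Calls fall in 7 lists, and the lowest points of the neutrophil and erythroid lists did not pass.

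Where the cells stood along the path was measured with genes that separate control HPC, pGM and GMP of the other 10 week set, as the mean log2 CPM of 50 markers of the later population minus that of 50 markers of the earlier one. The pGM over HPC score was 2.69, 2.23 and 2.53 in (x2) libraries 5293, 5897 and 5900, against 2.07, 2.17, 1.60 and 1.89 in controls. No library overlapped, and the difference of 0.551 had an exact permutation p of 0.057, the smallest possible. With 25 markers the libraries overlapped, with 3, 2.27 and 2.62 in (x2) pGM against 2.38, 2.54, 1.19 and 1.98 in controls (exact permutation p = 0.23), and with 100 markers they did not. The GMP over pGM score was 0.27, -1.17 and -0.10 in (x2) pGM, against 1.32, 1.70, -0.39 and -1.06 in controls, with wide overlap (exact permutation p = 0.46) and the highest values in controls 4892 and 4894.

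The same comparison in HPC of these animals called 142 genes (81 higher, 61 lower, 0.996% of those tested) and in GMP 128 (38 higher, 90 lower, 0.898%, of which 0.266% higher and 0.631% lower). Of the 119 pGM genes, 57 were also called in HPC (47.9% of the pGM and 40.1% of the HPC genes) and 49 in GMP (41.2% and 38.3%), all in the same direction; the populations come from the same animals. All 119 had the same sign in HPC and 110 in GMP. A set of 27 genes passed in all 3 populations: 12 rose, among them Mecom, Skida1, Hoxa10, Ehd3 and Sva, and 15 fell, among them C1qtnf6, Cd14, Scarf1, Ppic and Gpc3. Mecom rose by nearly the same amount in each population, with log2 fold changes of 1.51 in pGM, 1.55 in HPC and 1.48 in GMP, from levels that differed widely: (x2) libraries averaged 37.4 CPM in pGM, 118 CPM in HPC and 5.64 CPM in GMP. C1qtnf6 in (x2) libraries averaged 0.361 CPM in pGM, 1.44 CPM in HPC and 0.587 CPM in GMP, while controls had 25.8, 23.9 and 25.7 CPM in that order.

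A further 40 genes passed in pGM and in neither other population, but few differences were themselves called. Against GMP, Mcpt8 alone passed (1 gene, higher, 0.00701% of those tested), with a difference of effects of 1.89 ± 0.26 on the log2 scale (FDR 0.0039): GMP had 159 ± 13.2 CPM in (x2) and 170 ± 33.1 CPM in control libraries (SD, n = 3 and 4). Against HPC none passed, and DESeq2 called 10. An unadjusted edgeR p under 0.05 was reached by 475 of 14260 genes, a smaller share than this threshold allows by chance. Same-numbered libraries deviated together, and with the library number as a block 6 genes passed against each population. The blocked test against HPC called the effect higher in pGM for Mcpt8 and Prss34 and lower for Tifab, Grb10, Gfi1b and Bgn. That against GMP called it higher for, among others, Mcpt8, Il9r, Hbb-bt and Gfi1b and lower for Esam. These are differences of effects, not directions in pGM: there Prss34 had a log2 fold change of -1.99 (FDR 0.21) and Tifab 1.77. Il9r was read in HPC at 25.3 ± 3.69 CPM in (x2) and 0.112 ± 0.132 CPM in control libraries, and was at 0 in all (x2) GMP libraries. Tifab rose more in HPC, at 311 ± 84.8 CPM in (x2) and 24.4 ± 5.44 CPM in control libraries, with a pGM minus HPC difference of -1.89 ± 0.27 under the block (FDR 0.012) and -1.90 without it (FDR 0.052). Without pGM library 5293 or GMP library 5897 of the (x2) group, 2 genes passed against GMP, and without HPC (x2) library 5293 or HPC control 5898, 1 gene passed against HPC.

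**Figure D5:**
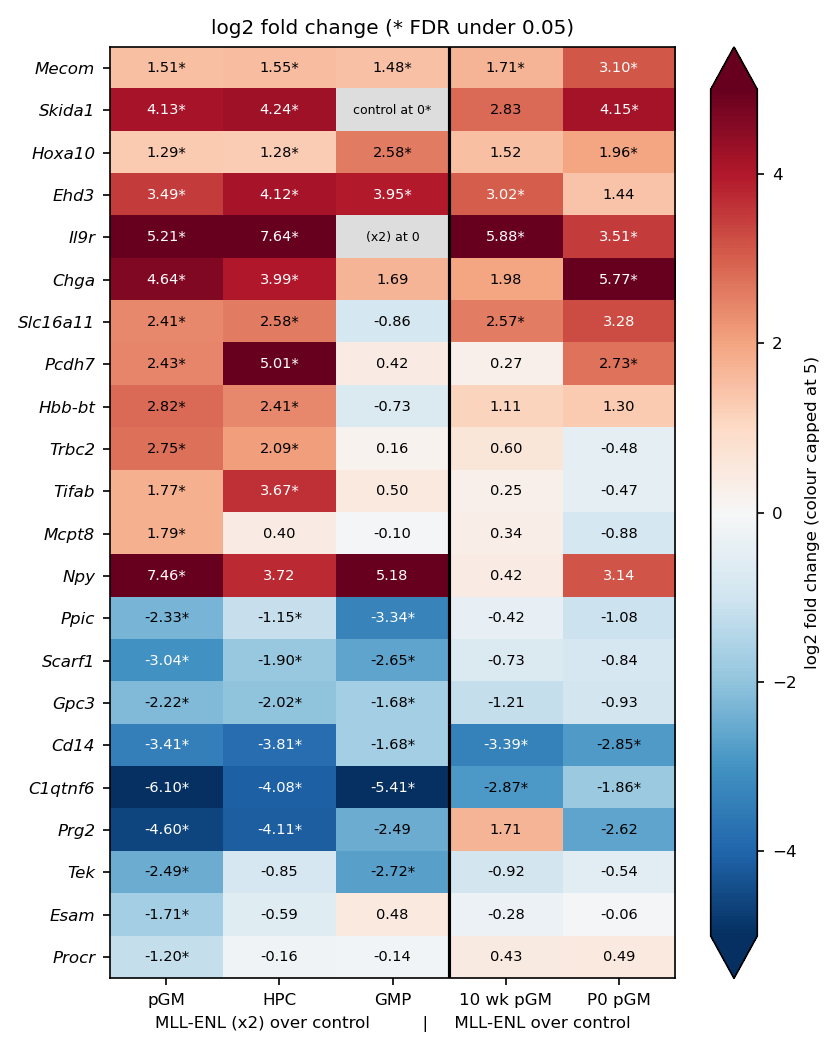
Log2 fold change of 22 genes (rows) in 5 comparisons (columns): (x2) over control in pGM, HPC and GMP, and MLL-ENL over control in 10 week and P0 pGM of the other set, with an asterisk at FDR under 0.05. Grey cells name a group whose libraries were all at 0. Mecom, C1qtnf6 and Cd14 pass in all 5 columns, and Mcpt8, Npy, Esam and Procr in pGM of the (x2) set alone.

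MLL-ENL pGM of the other set, measured against their own controls, allowed the same genes to be followed in a separate set and at another age. At 10 weeks 10 genes passed (0.0712% of 14040), and 8 of these were among the 119 of (x2) pGM (80% of the 10, 6.72% of the 119), all in the same direction: Ehd3, Il9r, Mecom, Slc16a11 and Sva were higher, and C1qtnf6, Cd14 and Klhl4 lower. At P0 52 passed (0.37%), and 14 were shared (26.9% of the 52, 11.8% of the 119): Chga, Hnf4a, Hoxa10, Il9r, Mecom, Pcdh7, Skida1 and Sva higher, and C1qtnf6, Cd14, Ifitm1, Il11ra1, Maged1 and Serpinf1 lower. Of the 119 genes, 117 were tested in this fit, and 104 of them had the same sign at 10 weeks but 85 at P0. Cd14 had a log2 fold change of -3.41 in (x2), -3.39 in 10 week MLL-ENL and -2.85 in P0 MLL-ENL pGM. Meis1 had -0.33, 0.31 and 1.16 in the same order and passed at P0 (FDR 0.017), and its difference between (x2) and P0 was -1.49 ± 0.31 (FDR 0.055).

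Tests of the difference of effects named the genes in which (x2) pGM stood apart. Against 10 week MLL-ENL, 3 of 14040 genes passed (0.0214%, with 2 or 0.0142% higher and 1 or 0.00712% lower): C1qtnf6 had a difference of -3.23 ± 0.42 (FDR 0.0016), Pcdh7 had 2.16 ± 0.35 (FDR 0.024) and Npy 7.04 ± 1.19 (FDR 0.03). Pcdh7 had 8.99 to 12.6 CPM in (x2) pGM and 1.34 to 2.24 CPM in its controls. Leaving out control 87 or 88 or MLL-ENL 74 of the other set, control 4894, or (x2) library 5897 left 1 gene, and DESeq2 called 22. Against P0 MLL-ENL, 21 genes passed (0.15%), 7 higher (0.0499%) and 14 lower (0.0997%). Of these C1qtnf6 (difference -4.24 ± 0.43, FDR 2.7e-05), Cavin1 (-2.20 ± 0.39), S1pr1 (-2.14 ± 0.34), Vldlr (-2.45 ± 0.42) and Clstn3 (-1.52 ± 0.26) were lower and Trbc2 (3.23 ± 0.51) and Mcpt8 (2.67 ± 0.53) higher in (x2) pGM. Cavin1, a coat protein of caveolae, had 28.9, 43.0 and 27.1 CPM in (x2) pGM, against 110, 73.6, 92.0 and 102 CPM in controls. With the P0 number as a block 20 genes passed, 15 of them shared, and Mcpt8 did not. The count fell to 3 without P0 control 2, to 7 without control 4892 or (x2) library 5900, to 8 without P0 MLL-ENL 5, to 12 without P0 control 5 and to 13 without P0 control 3, control 4894 or 5899 or (x2) library 5897, and was 36 without P0 MLL-ENL 2. P0 cells came from neonatal liver. Age, tissue, set and the label (x2) thus all differ between (x2) and P0 pGM and cannot be told apart. Between (x2) and 10 week MLL-ENL pGM the set and the label (x2) differ together, and these cannot be told apart either.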

How the data were processed

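RNA of sorted progenitors was sequenced after Qiagen RNAeasy micro plus extraction and Clontech SMARTer library preparation, per the labels' protocols. The authors deposited raw read counts for each Ensembl gene, produced with STAR 3.0.4, Subread and featureCounts 1.4.5, per the submitters' processing notes. The sources used here give no genome build, annotation or strand setting for the counting, so overlapping, antisense and near-identical genes (Hbb-bt and Hbb-bs, the Xlr4 genes, Xist) may share reads. The table held 41391 lines, 41388 of mouse genes and 3 of the transgene; symbols came from GENCODE vM21 (GRCm38), which matched 40340. The transgene was taken as the human KMT2A plus MLLT1 CPM of mouse counts.

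All 21 libraries of the (x2) set (HPC, pGM, GMP) entered 1 fit in edgeR 4.0.16 (R 4.3.3): TMM scaling, filterByExpr, 14260 genes, 1 mean per group, quasi-likelihood F test, Benjamini-Hochberg FDR 0.05 over all genes. A second fit of the 22 pGM libraries of the series (14040 genes) gave the comparisons with MLL-ENL. Values in the text are TMM-scaled CPM; SD is over libraries and SE is of the log2 fold change. CPM is not corrected for gene length and compares libraries, not genes. Single values were compared by 2-sided exact permutation tests with scipy 1.17.1. Floors are 3 counts over a group and cover counting error only, since these reads are not independent molecules. Nothing beyond the numbers says that libraries are separate animals, so p-values measure the spread between these libraries. On data simulated for (x2) against control pGM over 14260 genes, edgeR recovered 33% of genes changed 2-fold and 77% changed 4-fold and called 4 unchanged genes (DESeq2 22). The simulated libraries were drawn independently of each other. They lack the shared deviations of same-numbered libraries and of pairs of controls, so these rates may not hold for the real data.

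Same-numbered libraries of the 3 populations correlated best with their own number in 14 of 14 pairs (r of deviations from the group means 0.22 to 0.61), and the 3 P0 pairs had r of 0.51, 0.44 and 0.25, so blocked values stand beside those results. No pair of pGM libraries was a duplicate.

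The libraries, gene lists and tests were chosen with earlier results of these data known. Named by rule were the 12 largest rises and falls past FDR 0.05 (mean log2 CPM, prior count 2, of at least 1, no overlap of groups, no predicted gene model), up to 4 called members of each list or else the 2 of highest level, 6 genes per test of a difference, and Kmt2a, Mllt1, the Hoxa genes, Meis1, Xist and Ddx3y. Further list members are named with values, and other genes are marked as picked once their values were known. Alternatives were RLE scaling, no count filter, DESeq2 1.42.0, the 7 pGM or all 22 pGM libraries alone, replicate blocks, 25 or 100 markers in the scores, TMM-scaled transgene levels and leaving out each library. Chosen after seeing the data were libraries 5897 to 5900 alone, the number series (48, 52 or 58) as a term, Xist as a covariate and the P0 block. A few genes that meet these rules are not reported here.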

Additional observations from a re-analysis of the deposited data

Results flagged for a closer look

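In 7 of 93 groups of 4 control pGM values checked, 1 library stood apart by its gap to the others relative to the group's range, where chance gives about 1 in 20. Ddx3y at 81.3 CPM in control 4892 marks the 1 control library with high Y-linked expression. Il9r at 0.53 CPM in control 5899 lay above the other controls, still below every (x2) library. Scarf1 at 21.3 CPM in control 5899 lay above the others. Hoxa9 at 24.2 CPM in control 5899, Nsg2 at 0.654 CPM and Top2a at 581 CPM, both in control 4894, were the low ones. Lin28b had 0.0516 CPM in control 5898 and 0 in the rest.

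The effect in (x2) pGM differed from that in another comparison, by a test of the difference, for the 8 genes below, chosen by the naming rule; Npy and Klhl4, named otherwise, passed such tests too. Mcpt8 rose in (x2) pGM but not in GMP (log2 fold change -0.10) or in P0 MLL-ENL pGM (-0.88), neither passing the test. The differences of effects were 1.89 from GMP and 2.67 from P0 MLL-ENL pGM on the log2 scale. C1qtnf6 differed from 10 week MLL-ENL pGM by -3.23 and from P0 MLL-ENL pGM by -4.24. Pcdh7 differed from 10 week MLL-ENL pGM by 2.16. Relative to P0 MLL-ENL pGM the differences were 3.23 for Trbc2, -2.20 for Cavin1, -1.52 for Clstn3, -2.14 for S1pr1 and -2.45 for Vldlr.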

How the results depend on the processing

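The count of 119 genes between (x2) and control pGM was 120 with RLE scaling, 154 without the filter on low counts, 256 with DESeq2 (107 higher, 149 lower), 111 with the 7 pGM libraries alone, 102 with all 22 pGM libraries, 174 with the number series as a term and 165 with Xist as a covariate. Leaving out each library gave 75 (without (x2) 5897) to 112 (without control 5898), and libraries 5897 to 5900 alone gave 24. Of the 119, DESeq2 still called 118, the number series term 103, the Xist covariate 113, the 7 libraries alone 88 and the 22 libraries 75. All that were tested kept their direction. Where a fit only rescales or leaves out libraries, the lack of overlap in these genes all but fixes this. No paired analysis was possible for this comparison because the (x2) and control groups share no library number. With 33% of simulated 2-fold changes recovered, genes that miss the threshold may still differ.

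The difference from HPC called 0 genes, 2 without the filter, 10 with DESeq2, 6 with the replicate block and 0 to 1 with a library left out. The difference from GMP called 1, then 3, 16, 6 and 1 to 2 in the same order. The difference from 10 week MLL-ENL called 3, with 11 without the filter, 22 with DESeq2 and 1 to 4 with a library left out. The difference from P0 MLL-ENL called 21, with 36 without the filter, 76 with DESeq2, 20 with the replicate block on the P0 number and 3 to 36 with a library left out. The cause of these changes was not tested. Transgene and score differences kept their direction under every alternative run; their exact tests cannot go below 0.05, so the threshold says nothing here. They were 0.441 to 0.677 for the pGM over HPC score, -1.21 to -0.291 for the GMP over pGM score and 6.47 to 8.74 CPM for the transgene with a library left out. Among named genes no direction turned where the gene was called in the main fit or in the alternative. Turns of sign in genes called in neither were not counted. Over all named genes and alternatives a call was lost 59 times and gained 10 times, against 1278 pairs with no change of call.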

Other observations

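Several changed genes were neighbors on a chromosome (within 500 kb, GENCODE vM21 on GRCm38), a pattern seen in the data and not chosen by any rule. How often called genes would lie this close by chance was not tested. Nsg2, Il9r and Rhbdf1 lie between 32000463 and 32222300 on chromosome 11, beside the alpha-globin genes, and all 3 rose, by 2.35, 5.21 and 3.26 on the log2 scale. Rhbdf1 had 6.39, 2.31 and 3.51 CPM in (x2) pGM and at most 0.654 CPM in controls. Between and beside them Snrnp25 (0.51 ± 0.15, FDR 0.16), Nprl3 (-0.07 ± 0.17, FDR 0.95) and Mpg (0.30 ± 0.17, FDR 0.76) did not pass. The alpha-globin genes Hba-a1 (-3.46 ± 1.15, FDR 0.25) and Hba-a2 (-3.87 ± 1.25, FDR 0.23) lay lower and did not pass either. Of 8 tested genes within 200 kb of Il9r, itself included, 3 were called. Other neighbors with a shared direction included Serpinf1 and Scarf1 (both lower), Trbc2 and Sva (both higher) and the X-linked Xlr4a, Xlr4b and Xlr4c (all higher), which are close paralogs whose reads the counting may split. Tifab and Tgfbi, and C1qtnf6 and Lgals1, lie within 500 kb of each other and moved in opposite directions.

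Gt(ROSA)26Sor, Mt1, Ifitm1, Prdm16 and Abcg2 were chosen after their values were seen. Gt(ROSA)26Sor, the transcript of the Rosa26 locus into which mouse transgenes are often placed, had 23.4, 27.1 and 31.3 CPM in (x2) pGM, against 15.1, 14.3, 16.2 and 12.8 CPM in controls (0.90 ± 0.18, FDR 0.013), and rose by 1.58 in HPC of the same animals (FDR 3.8e-05). Mt1, the metallothionein gene, had 94.4, 135 and 233 CPM in (x2) pGM and 53 to 79.5 CPM in controls (1.21 ± 0.28, FDR 0.036). Ifitm1, an interferon-inducible membrane protein also made by stem cells, had 182, 115 and 253 CPM in (x2) pGM and 413 to 583 CPM in controls (-1.44 ± 0.30, FDR 0.016). Prdm16, a relative of Mecom that acts in stem cells, had 23.1, 35.1 and 28.7 CPM in (x2) pGM, against 13.4, 10.7, 16.1 and 8.42 CPM in controls (1.25 ± 0.30, FDR 0.049). Abcg2, the efflux pump of side-population stem cells, had 18.5 to 24.6 CPM in (x2) pGM and 35.7 to 48.7 CPM in controls (-0.94 ± 0.21, FDR 0.031).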
